A study of Mus musculus with 11 samples.

Results

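Glycosyltransferase genes were described in mouse mammary gland by their transcript levels at parturition. Members were taken by symbol: a gene counted when its name began with Galnt, B4galt, B3galt, B3gnt, St3gal, St6gal, St8sia, Mgat, Gcnt or C1galt, or with Fut and a digit. This gave 69 genes in 11 symbol families out of 14847 named genes in the expression table. A gene with no locus named for it alone was not counted, so the families may not be complete. The rule used names and no measured value, though it was set with earlier results of these data known. Going by names, it also took in enzymes that act on glycolipids, on proteoglycan linkers or in the brain, beside those that could act on milk glycans. The level of a gene is its FPKM, a fragment count scaled for transcript length and for library size, at the highest of its assembled loci, so that levels of different genes are compared per length.

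The series mapped STAT5A binding and the promoter mark H3K4me3 in mouse mammary samples from pregnancy and parturition, with RNA-seq at parturition alone. Its labels describe 11 samples, and 1 of them, an RNA-seq library of whole gland collected at parturition with the lymph nodes taken out, gave the values below. The mice were wild type, with no treatment named, on a mixed 129SV::FVB/N::C57BL/6 background, and the sources used here do not give their age, their number or whether tissue was pooled. The tissue label was borne out by its defining markers: Csn2, Elf5, Krt8, Krt18, Krt19 and Epcam, the luminal epithelial genes checked, all stood above 100 FPKM. Among all named genes 2.96% reached 100 FPKM, and 4 of the 5 adipocyte genes checked did so too. With 1 library, no value has a replicate error, no test was made, and the sequencing depth is unknown.

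Glycosyltransferases of the Golgi build sugar chains one residue at a time, each using an activated sugar and an acceptor. In the lactating gland the galactosyltransferase B4galt1 pairs with alpha-lactalbumin, encoded by Lalba, to form lactose synthase, which turns glucose into the acceptor for galactose. The same enzyme without its partner adds galactose to N-acetylglucosamine on glycoproteins. Sialyltransferases and fucosyltransferases then cap chains on milk proteins, on mucins, on lipids and on lactose itself.

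Transcript levels were concentrated in a few members. B4galt1 stood at 436 FPKM, rank 139 of all named genes, and made up 41.2% of the summed FPKM of the 69 members. St6gal1, the enzyme that puts alpha-2,6-linked sialic acid on N-glycans, followed at 175 FPKM and rank 276. Galnt1, which starts mucin-type O-glycans, stood at 75.3 FPKM, and St6galnac1, which sialylates the first O-linked sugar, at 49.99 FPKM. The first 2 members held 57.8% of the sum, the first 8 held 80.5% and the first 16 held 90.2%.

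Most other members were low. The members had a median of 1.68 FPKM, against 3.90 for all named genes, a difference of -0.87 between medians on the log2(FPKM + 1) scale. At least 1 FPKM was reached by 44 of the 69 members (63.8%), against 73.6% of all named genes. At least 5 FPKM was reached by 23 members (33.3% against 44.3%) and at least 20 FPKM by 8 members (11.6% against 15%). At least 100 FPKM was reached by B4galt1 and St6gal1 alone, or 2 of 69, where 2.96% of all named genes did so. Listed at 0 were 5 members, B3galt5, B3gnt4, B3gnt5, Mgat5b and St8sia5, where 4.03% of all named genes were listed at 0. The members' shares at 1, 5 and 20 FPKM thus lay below those of all named genes, and their share at 100 FPKM lay near it, a difference that was not tested.

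**Figure D1:**
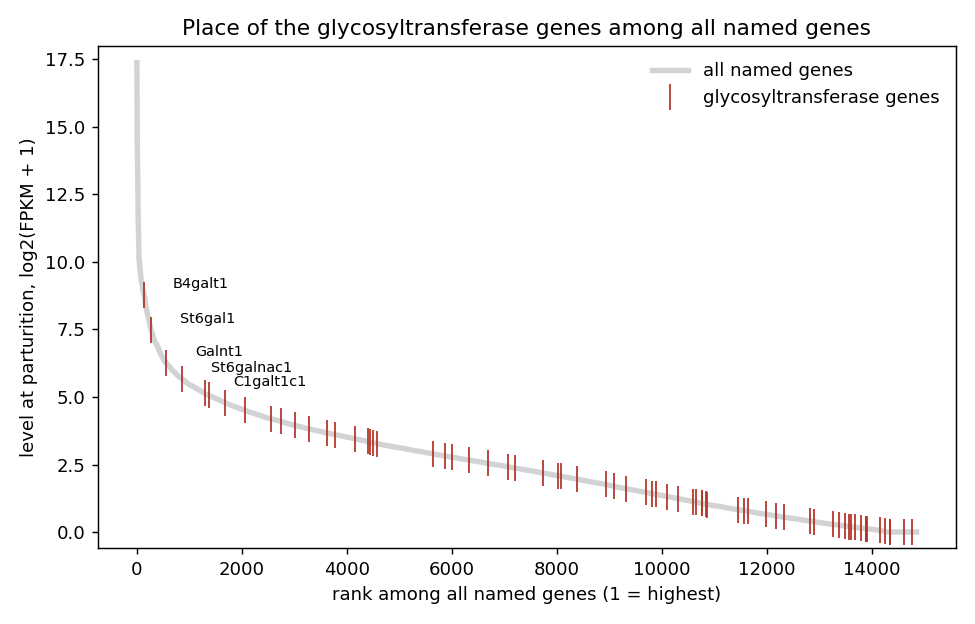
Level at parturition, log2(FPKM + 1), against rank among all 14847 named genes in 1 RNA-seq library; the grey line is all named genes and each red tick is 1 of the 69 glycosyltransferase genes. Members at the upper end are labelled, led by B4galt1 at rank 139 and St6gal1 at rank 276, and the other ticks spread down to genes listed at 0.

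The beta-1,4-galactosyltransferases were the most uneven family. B4galt1 held 96.3% of the summed FPKM of its 7 members and stood 67.9 times above B4galt3, the next in the family, at 6.42 FPKM. B4galt3 and B4galt4, at 2.39 FPKM, also make N-acetyllactosamine. B4galt7, at 5.83 FPKM, adds the first galactose of the proteoglycan linker. B4galt5, at 0.70 FPKM, and B4galt6, at 1.05 FPKM, make lactosylceramide, and B4galt2 was lowest at 0.46 FPKM. All 6 other members together came to 16.9 FPKM, so B4galt1 exceeded their sum 25.9 times. The family's median of 2.39 FPKM stood below that of all named genes, which shows that the height of B4galt1 was not shared by its relatives.

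Lalba, the other component of lactose synthase, stood at 8034 FPKM, 18.4 times the level of B4galt1. Slc35a2, which carries UDP-galactose into the Golgi, stood at 17.03 FPKM, so B4galt1 was 25.6 times higher than the transporter of its donor sugar.

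B4galt1 also had a STAT5-type core motif in the promoter at its RefSeq start, shown here because STAT5A is the factor that the series mapped. Whether transcripts in this library began at that start was not tested. The sequence covers the 250 bases before the RefSeq start of B4galt1, in GRCm38.p6 at chr4:40853985-40854234 on the minus strand. Capitals mark the core motif TTCNNNGAA, which starts 99 bases before the start, and GC boxes, searched as GGGCGG or its reverse complement CCGCCC after the sequence had been read.
B4galt1: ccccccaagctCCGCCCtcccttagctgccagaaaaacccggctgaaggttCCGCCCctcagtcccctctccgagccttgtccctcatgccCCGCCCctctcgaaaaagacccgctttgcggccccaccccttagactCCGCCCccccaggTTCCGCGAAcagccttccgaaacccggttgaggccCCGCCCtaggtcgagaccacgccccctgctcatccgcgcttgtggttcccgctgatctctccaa
This stretch held 5 GC boxes and was 66.4% G or C. At least 5 GC boxes in the same 250 bases were found in 1.93% of all 32851 promoters of the table and in 5 of the 73 promoters of members. At least 1 box was found in 32.7% of all promoters and in 47.9% of those of members.

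The TTCNNNGAA core was found in a small share of promoters, among members and elsewhere. Promoters of 300 bases, 250 before and 50 after the start, were matched for 50 of the 69 members, and 6 of their 73 promoters held the motif (8.22%), against 8.30% of all promoters. Counted by gene, 6 of the 50 (12%) had a promoter with the motif, against 9.55% of all genes in the table. The sites, with 10 bases on either side and the core in capitals, are shown to set the letters beside the levels. They lie in GRCm38.p6 at chr4:40854065-40854093 (minus strand) for B4galt1, chr8:58911779-58911807 (minus strand) for Galntl6, chr5:149678044-149678072 (plus strand) for B3galtl, chr13:40886521-40886549 (plus strand) for Gcnt2, chr13:96924164-96924192 (plus strand) for the upstream site of Gcnt4 and chr16:96235781-96235809 (plus strand) for B3galt5.
B4galt1: cccccccaggTTCCGCGAAcagccttccg
Galntl6: cttaccattaTTCTATGAAacgatcgtat
B3galtl: gggaaagaagTTCTGGGAAgcgaagggca
Gcnt2: ttcaactcttTTCTGTGAAgtcttcaggt
Gcnt4: tgcgggcagaTTCCAGGAAgtctccctct
B3galt5: gcagtatcggTTCCTTGAAggatttctca
These genes stood at 436, 5.34, 3.55, 1.68, 0.0942 and 0 FPKM in that order, so genes with a match lay at both ends of the range. Of the 8 members that reached 20 FPKM, only B4galt1, St6gal1 and St3gal4 had a promoter to search. Galnt1, St6galnac1, C1galt1c1, St3gal1 and St6galnac2 had none, so the motif was not looked for in most of the high members. The motif reads the same on both strands, and it overlaps no GC box in the B4galt1 sequence. Gcnt4 held another match within the 50 bases after its start. A match in these windows is a description of letters and not a bound site. The peak lists are in mm9 and the promoters in GRCm38.p6, so STAT5A peaks and H3K4me3 regions were not placed at these genes.

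The first step of mucin-type O-glycosylation had the largest family, with 1 gene in front. Of the 15 Galnt genes, whose enzymes move N-acetylgalactosamine to serine or threonine, 11 reached 1 FPKM (73.3%, against 73.6% of all named genes) and 6 reached 5 FPKM (40.0% against 44.3%). Their median was 3.24 FPKM, below the 3.90 FPKM of all named genes. Galnt1 held 54.5% of the family's summed FPKM, 4.67 times the level of Galnt10 at 16.1 FPKM. Galnt11 and Galnt2 followed at 11.2 and 8.88 FPKM, and Galnt7, which extends sites already started, at 6.06 FPKM. Galntl6 at 5.34, Galnt12 at 4.84 and Galnt4 at 3.24 FPKM lay in the middle of the family. Below them stood Galntl4 (now Galnt18) at 2.89 FPKM, Galntl2 (now Galnt15) at 2.05 FPKM and Galnt3 at 1.19 FPKM. The lowest were Galntl1 (now Galnt16), Galnt5, Galnt9 and Galnt6, from 0.51 down to 0.0940 FPKM. None of the 15 was listed at 0, where 4.03% of all named genes were.

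Both genes of the next step were present at 14.5 FPKM or more. C1galt1 adds galactose to make the core 1 chain and needs the chaperone encoded by C1galt1c1, also called Cosmc, to fold. C1galt1c1 stood at 34.02 FPKM and C1galt1 at 14.5 FPKM in its highest locus, a ratio of 2.35. C1galt1 had a further locus at 12.9 FPKM, and the sum of its loci, 27.4 FPKM, lay closer to the chaperone. Among the branching enzymes, Gcnt1, which makes core 2, stood at 9.22 FPKM, Gcnt2, which makes the I branch of lactosamine chains, at 1.68 FPKM and Gcnt4 at 0.0942 FPKM.

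Genes of the B3galt and B3gnt symbol families, whose enzymes have various acceptors, were low. No B3galt or B3gnt gene reached 5 FPKM, where 44.3% of all named genes did. B3galt4, which makes ganglioside cores, stood at 4.15 FPKM, and B3galtl (now B3glct), a glucosyltransferase despite its older symbol, at 3.55 FPKM. B3galt6, of the proteoglycan linker, was at 1.49 FPKM, B3galt1 at 0.17 FPKM, and B3galt5, which makes type 1 chains, was listed at 0. B3gnt2, the main enzyme extending poly-N-acetyllactosamine, led its 9 genes at 3.18 FPKM. B3gnt3, B3gntl1 and B3gnt6 followed at 1.35, 1.09 and 1.03 FPKM, and B3gnt8 at 0.78 FPKM. B3gnt9-ps (now B3gnt9) and B3gnt7 were at 0.19 and 0.0406 FPKM, while B3gnt4 and B3gnt5, the enzyme that starts lacto-series glycolipids, were listed at 0.

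**Figure D2:**
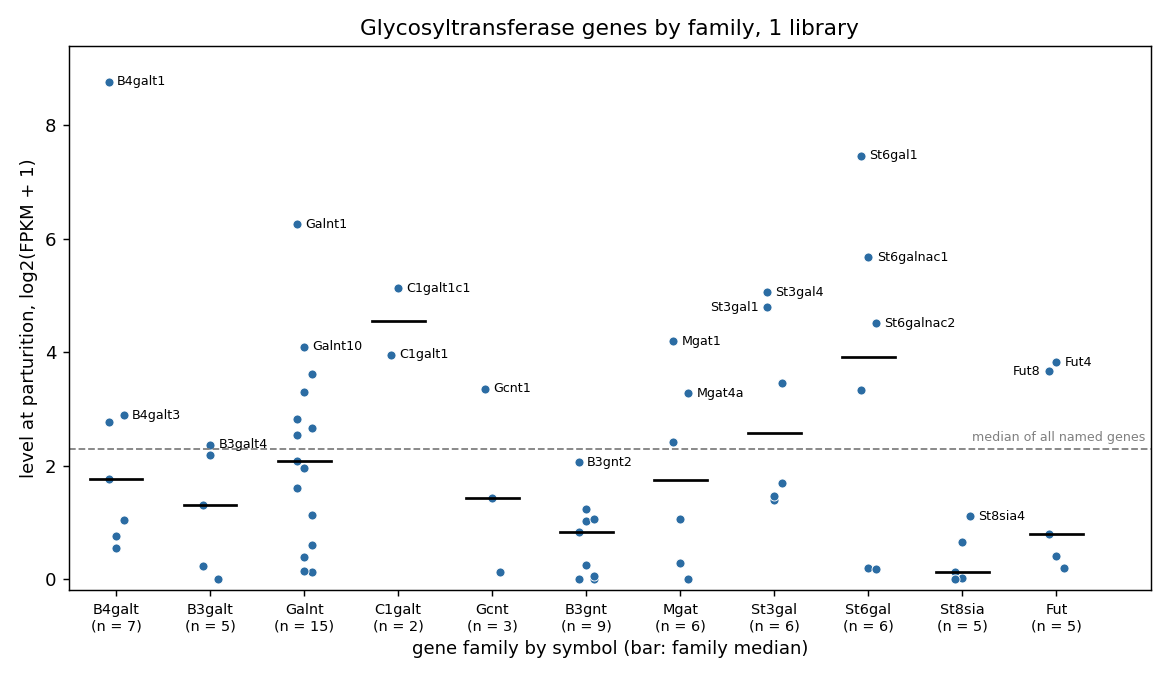
Level at parturition, log2(FPKM + 1), of each of the 69 genes in 1 RNA-seq library, by symbol family, with a bar at each family's median and a dashed line at the median of all named genes. B4galt1 and St6gal1 stand above all other members, and the medians of C1galt, St6gal and St3gal lie above the dashed line.

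N-glycan branching genes ranged from 17.3 FPKM to a gene listed at 0, with a median of 2.71 FPKM. Mgat1, which opens the way from oligomannose to complex N-glycans, stood at 17.3 FPKM. Mgat4a and Mgat4b, which add further antennae, stood at 8.67 and 4.33 FPKM. Mgat5, which adds the beta-1,6 branch, stood at 1.09 FPKM, 15.9 times below Mgat1. Mgat3, which places the bisecting residue, was at 0.22 FPKM, and Mgat5b was listed at 0. Mgat2, which acts between Mgat1 and the later enzymes, was not analysed here. Against this group B4galt1 and St6gal1 were high, at 25.3 and 10.2 times the level of the highest Mgat1 locus. Summed over its 6 loci, Mgat1 stood at 24.3 FPKM, which makes both ratios smaller. B4galt1 is also part of lactose synthase, so its level is not that of the N-glycan galactose step alone.

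Sialyltransferases formed the second large block and held 31.5% of the members' summed FPKM over 17 genes. Their median was 1.77 FPKM, close to that of all members, so the block's weight came from a few genes. St6gal1, the only gene measured of its alpha-2,6 N-glycan type, exceeded the sum of all 6 St3gal genes, 74.6 FPKM, by a factor of 2.35. It stood 5.44 times above St3gal4, the highest of the alpha-2,3 enzymes.

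All 6 St3gal genes reached 1 FPKM, where 73.6% of all named genes did, with a median of 6.09 FPKM. That median was 2.23 FPKM without St3gal4. St3gal4, which caps lactosamine ends, was at 32.3 FPKM and St3gal1, which sialylates core 1 O-glycans, at 26.7 FPKM in its highest locus. This order turned with the sum over loci, which gave 48.2 FPKM for St3gal1 and 39.5 FPKM for St3gal4. St3gal3 stood at 9.95 FPKM and St3gal6 at 2.23 FPKM. St3gal5, which makes the ganglioside GM3 from lactosylceramide, was at 1.77 FPKM, and St3gal2 was lowest at 1.63 FPKM.

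The St6galnac genes, taken in by the St6gal prefix, came to 81.1 FPKM over 5 genes. St6galnac1 and St6galnac2, which add sialic acid to O-linked N-acetylgalactosamine, stood at 49.99 and 21.8 FPKM. St6galnac3 was at 9.08 FPKM, and St6galnac5 and St6galnac6 were at 0.14 and 0.13 FPKM. A further locus, at 5.16 FPKM, was named for St6galnac4 and St6galnac6 together and was not assigned to either, so the level of St6galnac6 is uncertain.

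Alpha-2,8 sialylation was at the bottom of all families. Of the St8sia genes, known for gangliosides and for polysialic acid in the nervous system, 1 of 5 reached 1 FPKM, St8sia4 at 1.16 FPKM. Among all named genes 73.6% reached that level. St8sia6 was at 0.57, St8sia1 at 0.0923 and St8sia2 at 0.0144 FPKM, and St8sia5 was listed at 0. The sum of the family was 1.84 FPKM, which St6gal1 alone exceeded 95.6 times.

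Fucosyltransferases split into a higher pair and 3 low genes. Fut4, an alpha-1,3 enzyme that makes the Lewis x ending, was at 13.1 FPKM. Fut8, which adds the core fucose of N-glycans, was at 11.7 FPKM, a ratio of 1.13 that no replicate error can be set against. Fut10, Fut9 and Fut7 were at 0.73, 0.32 and 0.15 FPKM, of which Fut7 is best known from leukocytes, where it makes selectin ligands. The alpha-1,2 enzymes Fut1 and Fut2 were not analysed here.

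Set side by side, the family medians ran from 24.3 FPKM for C1galt through 15.4 for St6gal and 6.09 for St3gal to 3.24 for Galnt. They went on with 2.71 FPKM for Mgat, 2.39 for B4galt, 1.68 for Gcnt, 1.49 for B3galt, 0.78 for B3gnt, 0.73 for Fut and 0.0923 for St8sia. C1galt, St6gal and St3gal lay above the 3.90 FPKM of all named genes. With families this small the order depended on the genes counted: among single-locus genes Fut stood at 11.7 and Galnt at 4.04 FPKM, and St3gal at 2.002 FPKM, below the value for all named genes. By summed FPKM the order was different, with B4galt at 453 FPKM, St6gal at 257, Galnt at 138, St3gal at 74.6 and C1galt at 48.5. The remaining families summed to 31.6 FPKM for Mgat, 26.02 for Fut, 11.0 for Gcnt, 9.36 for B3galt, 7.65 for B3gnt and 1.84 for St8sia. B4galt thus led by sum and was sixth by median, since B4galt1 alone carried it.

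How a locus was chosen bore on 14 of the 69 members, those with several assembled loci. Among all 14847 named genes, 3832 had several loci. B4galt1, St6gal1, Galnt1 and St6galnac1 each had a single locus, and they kept the first 4 places when loci were summed. Mgat1 had 6 loci, with the next at 3.46 FPKM and a sum of 24.3 FPKM. B3gntl1 also had 6, at 1.09 and 1.05 FPKM in the highest ones, and its sum of 3.03 FPKM was 2.79 times its highest locus. The low level of B3gntl1 thus depends on how its loci are counted more than that of any other member. Gene overlap was counted for the members alone and not for all genes. In RefSeq, 7 members overlap another protein-coding gene: B3gnt4, B3gnt9-ps, B3gntl1, Galnt4, Galntl6, St3gal6 and St6galnac5. The sources used here do not say whether strand was used, so their values may include reads of the neighbour.

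**Figure D3:**
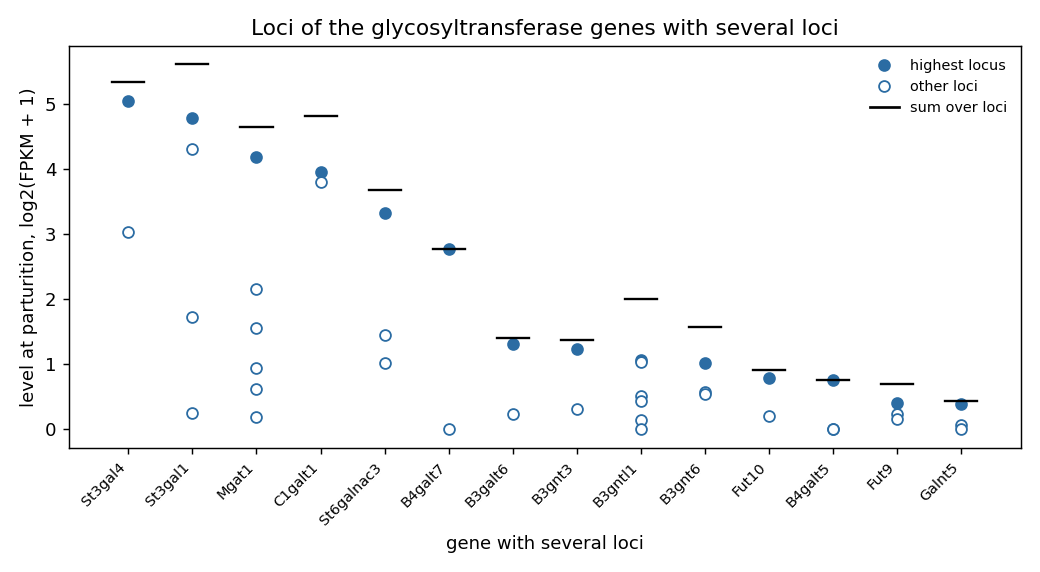
Level at parturition, log2(FPKM + 1), of every locus of the 14 members with several loci in 1 RNA-seq library; filled points are the highest locus, open points the other loci and bars the sum over loci. For C1galt1 and St3gal1 the next locus lies close under the highest, and the sum of St3gal1 lies above that of St3gal4.

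The genes that supply these enzymes had higher medians as lists than the enzymes did. The lists were picked by pathway, with earlier results of these data known, and the members by symbol alone. Their medians are thus not of sets made alike, and the difference was not tested. Sugar nucleotide supply had a median of 13.5 FPKM over 23 genes, of which 17 reached 5 FPKM, where 44.3% of all named genes did. Gfpt1, which commits fructose 6-phosphate to the hexosamines, led it at 3228 FPKM, rank 26 of all named genes and 39.2 times the next gene, Nans. That value lay in 1 of 3 loci, and the next locus stood at 22.3 FPKM. The table gives no locus lengths, so whether a short locus carries it was not tested.

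The sialic acid and fucose branches of supply followed. Nans, Cmas, Gne and Nanp, which make and activate sialic acid, stood at 82.4, 31.97, 30.4 and 20.5 FPKM. Tsta3 and Gmds, which make GDP-fucose, stood at 44.7 and 39.4 FPKM. Fpgt and Fuk, which make it by salvage, stood at 4.96 and 3.96 FPKM. Of all 23 supply genes, 8 reached 20 FPKM, where 15% of all named genes did. Ugp2, which makes UDP-glucose, was at 13.5 FPKM, while Galt and Galk1 of galactose salvage were at 5.41 and 3.69 FPKM. Uap1, which makes UDP-N-acetylglucosamine, stood at 16.5 FPKM, and Gfpt2 was the lowest of the list at 0.83 FPKM.

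The 11 Slc35 genes listed as sugar nucleotide transporters of the Golgi and endoplasmic reticulum had a median of 17.2 FPKM. Whether each of them carries a sugar nucleotide was not checked. Slc35a1, the CMP-sialic acid transporter, was at 24.9 FPKM. Slc35c1 for GDP-fucose, Slc35a3 for UDP-N-acetylglucosamine and Slc35a2 for UDP-galactose lay together at 17.2, 17.2 and 17.03 FPKM. Slc35b1 and Slc35c2 were higher, at 74.4 and 50.6 FPKM, and Slc35d2 was lowest at 1.20 FPKM.

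All 8 genes of N-glycan trimming lay between 5.16 FPKM for Man1a and 40.8 FPKM for Ganab, with a median of 11.8 FPKM. Of the glycolipid enzymes beside the members, Ugcg, which makes glucosylceramide, was at 19.5 FPKM and B4galnt1, of complex gangliosides, at 20.03 FPKM. A4galt and Ugt8a stood at 1.21 and 0.13 FPKM. Ugcg lay far above B4galt5 and B4galt6, which act on its product. Among sialidases, the lysosomal Neu1 was at 18.2 FPKM, Neu2 at 2.85 FPKM and Neu3 at 0.39 FPKM.

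Of 7 genes for acceptors of O-glycans in milk and on its membranes, 3 stood above B4galt1 and 2 were below 20 FPKM. Among all named genes, B4galt1 had rank 139, and 15% reached 20 FPKM. Glycam1, a mucin-like milk protein, was at 59241 FPKM and Csn3, the glycosylated kappa-casein, at 28095 FPKM. Cd24a, Muc15 and Muc1 stood at 627, 292 and 177 FPKM, Muc20 at 14.1 and Muc4 at 3.99 FPKM. St6gal1 and Muc1 were neighbours in the ranking of all named genes, at ranks 276 and 275.

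**Figure D4:**
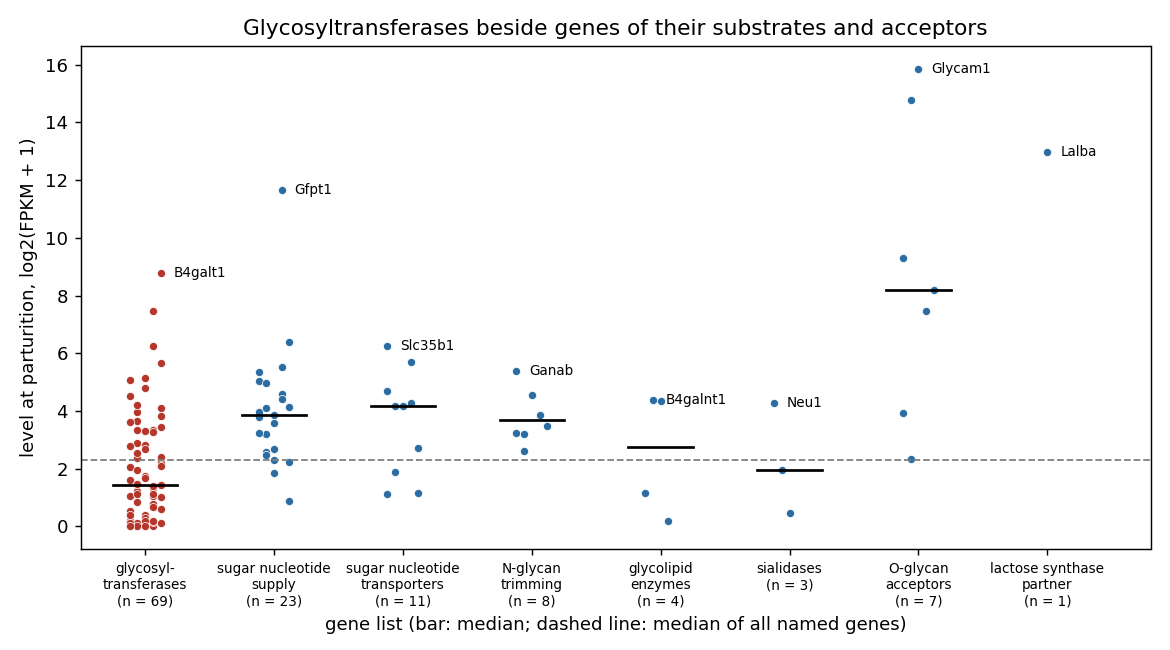
Level at parturition, log2(FPKM + 1), of the 69 glycosyltransferase genes (red) beside the genes of supply, transport, trimming, glycolipids, sialidases, acceptors and Lalba (blue) in 1 RNA-seq library, with a bar at each list's median and a dashed line at the median of all named genes. The glycosyltransferases spread from 0 to the level of B4galt1, and the supply and transport lists have medians above the dashed line.

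The library was made from whole tissue, so fewer cells of a type and less RNA per cell cannot be told apart, and a level cannot be assigned to a cell type. Of the marker lists checked beside the members, all 6 luminal epithelial genes lay between 108 and 170861 FPKM. All 5 adipocyte genes were present, from 14.3 to 723 FPKM with a median of 389. The 4 myoepithelial genes measured lay between 28.8 and 54.2 FPKM, the 3 fibroblast genes between 23.8 and 82.6 FPKM and the 3 skeletal muscle genes between 25.03 and 27.6 FPKM. The 3 endothelial genes lay between 7.05 and 15.1 FPKM, and Lyz2 and Csf1r of macrophages at 62.03 and 3.004 FPKM. Of 6 leukocyte genes, 3 reached 1 FPKM, where 73.6% of all named genes did, led by Igj at 19.8 FPKM. Of the same genes 1 was listed at 0, where 4.03% of all named genes were. The only neural gene measured, Syp, was at 0.70 FPKM. The part of these other cells in the levels of the glycosyltransferases was not tested.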

How the data were processed

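One RNA-seq library of mouse mammary gland at parturition was analysed. Per the labels' protocols, poly(A) RNA was made into TruSeq libraries for an Illumina HiSeq. The submitters' processing notes name CASAVA, TopHat and mm9, without versions. The authors deposited FPKM values for 30305 loci of a transcript assembly. The sources used here do not name the tool that computed FPKM, and depth is unknown. Of the loci, 21958 carried 1 symbol, 117 several and 8230 none.

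With Python 3.11.15, each gene took the FPKM of its highest single-symbol locus. Levels were counted at 1, 5, 20 and 100 FPKM and compared on the log2(FPKM + 1) scale without a minimum. All B4galt genes were to be named, and in other families at least the 3 highest, the lowest and those listed at 0. Members and lists were chosen with earlier results of these data known. Symbols were matched to RefSeq (GRCm38.p6), 64 directly and 5 through older symbols, and promoters came from the same source. Alternatives were the sum over loci, single-locus genes, loci with several symbols, a minimum of 1 FPKM, other family definitions and a pseudocount of 0.1. The functions were tested on simulated data. The ChIP-seq lists, in mm9, were not used, since no gene positions of that build were at hand. Single values of some listed genes are not reported here.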

Additional observations from a re-analysis of the deposited data

How the results depend on the processing

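An alternative was counted as moving a value when it changed it by more than 1.5 times, and 62 of 87 alternative values stayed within that. The counts of members at 1, 5 and 20 FPKM all did, though with single-locus genes they were out of 55 members. B4galt1's level and its ratios to St6gal1 and B4galt3 did not change at all. These genes each have a single locus and lie above 1 FPKM, so the settings could not have changed those values. They are counted among the 62 but do not show how firm the values are. With a minimum of 1 FPKM the median of members was 5.58 FPKM, and family medians were 5.83 (B4galt), 3.55 (B3galt), 5.34 (Galnt), 5.45 (Gcnt), 1.22 (B3gnt), 6.50 (Mgat), 35.9 (St6gal), 1.16 (St8sia) and 12.4 (Fut). Without each family's highest member the medians were 0.83 (B3galt), 14.5 (C1galt), 0.89 (Gcnt), 0.49 (B3gnt), 1.09 (Mgat), 2.23 (St3gal), 9.08 (St6gal) and 0.053 (St8sia). With single-locus genes they were 0.12 (B3gnt), 1.09 (Mgat), 2.002 (St3gal) and 11.7 (Fut). Each of these settings leaves fewer genes, and the order of the families changed with them. St6gal gave 9.08 FPKM with loci of several symbols counted, which adds a gene, and 175 FPKM with St6galnac genes apart. B4galt1 lay 7.35 above the members' median on the log2(FPKM + 1) scale and 7.94 above it with a pseudocount of 0.1. No paired analysis was possible because there is 1 library.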
